A study of Mus musculus with 20 samples.

Results

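Cell proliferation genes are transcribed in cells that copy their DNA and divide, and are largely silent in resting cells. The 40 genes described here act in S phase, G2 and mitosis, and were taken by symbol from a table of 51789 genes. All 40 symbols were found, each on 1 row. RNA had been sequenced from 2 parts of the mouse intervertebral disc, the nucleus pulposus (NP, the gel-like core, derived from the notochord) and the annulus fibrosus (AF, the layered fibrous ring around it). The BL6 mice were 24 months old, and from 18 months of age had received weekly intraperitoneal injections for 6 months. The vehicle groups received DMSO, and the other groups received MDL-800, an activator of the chromatin deacylase SIRT6, in the same amount of DMSO, so that all mice shared the solvent. There were 5 libraries in each of 4 groups, 1 per treatment in either tissue. No young or uninjected mice were among the samples used here.

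Entry into the cell cycle begins when cyclin-dependent kinases inactivate the retinoblastoma family and release E2F factors, which switch on genes for licensing replication origins and making DNA. A later wave of genes, driven by the B-MYB and FOXM1 factors, encodes the kinases, motors and checkpoint proteins of mitosis. In resting cells the DREAM complex holds both waves down through E2F sites and through a short element called CHR. Most cells of the mature disc rarely divide, whereas precursors of blood cells in the marrow of the adjoining vertebrae divide throughout life.

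Promoters of the 2 waves are shown first because the members moved together between tissues, as described below. RefSeq windows of 250 bases before to 50 after the start (build GRCm38.p6) were found for 33 of the 40 members, 35 windows in all. Both strands were searched for CHR (TTTGAA), for CCAAT and for E2F sites, taken as TTCCCGC, also as TTCGCGC, also as TTGCCGC and also as TTGGCGC, where sites on opposite strands can overlap. CHR was present in 45.7% of the members' windows and in 17.9% of all 32851 windows. CCAAT was present in 77.1% against 37.4%, an E2F site in 34.3% against 9.57%, and CHR together with CCAAT in 45.7% against 6.95%. By role, CHR was found in 6 of 7 windows of the G2/M regulators and in 1 of 8 windows of the origin licensing genes. An E2F site was found in 7 of 8 windows of the licensing genes and in 2 of 7 of the G2/M regulators. DNA synthesis genes held CHR in 0 of 5 windows and E2F in 2 of 5. The 2 windows of G1/S entry genes held none of the 3 elements. CHR was found in 3 of 6 windows of the centromere and checkpoint role and in 4 of 5 of the spindle role, and E2F in 0 of either. The chromosome proteins held CHR in 2 of 2 windows and E2F in 1 of 2. These are matches of letters, and no binding was measured.

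The following 150 bases end just before the annotated start and are written 5′ to 3′ on the strand of the gene, with matches on either strand in capitals. They were picked as an example with both kinds of element (Mki67), 2 of the mitotic wave (Top2a, Cdc20) and 3 of the replication wave (Mcm6, Rrm1, Pcna). Their positions are chr7:135716380-135716529, minus strand, for Mki67 and chr11:99024190-99024339, minus strand, for Top2a. Cdc20 lies at chr4:118437344-118437493, minus strand, and Mcm6 at chr1:128359706-128359855, minus strand. Rrm1 lies at chr7:102441545-102441694, plus strand, and Pcna at chr2:132253181-132253330, minus strand.
Mki67: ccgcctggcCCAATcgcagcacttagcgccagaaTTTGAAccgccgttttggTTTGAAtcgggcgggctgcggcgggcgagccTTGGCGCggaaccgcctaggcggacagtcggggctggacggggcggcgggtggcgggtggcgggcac
Top2a: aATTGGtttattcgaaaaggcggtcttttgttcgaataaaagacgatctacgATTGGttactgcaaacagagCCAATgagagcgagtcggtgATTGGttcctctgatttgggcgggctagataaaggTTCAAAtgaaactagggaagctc
Cdc20: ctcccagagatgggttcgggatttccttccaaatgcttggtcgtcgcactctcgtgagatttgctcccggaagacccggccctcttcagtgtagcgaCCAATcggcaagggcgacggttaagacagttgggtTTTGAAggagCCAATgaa
Mcm6: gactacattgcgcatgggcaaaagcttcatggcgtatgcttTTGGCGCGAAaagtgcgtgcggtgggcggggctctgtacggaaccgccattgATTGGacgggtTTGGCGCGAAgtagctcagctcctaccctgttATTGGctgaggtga
Rrm1: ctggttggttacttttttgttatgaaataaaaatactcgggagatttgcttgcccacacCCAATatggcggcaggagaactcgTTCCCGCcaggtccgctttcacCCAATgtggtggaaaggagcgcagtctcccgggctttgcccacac
Pcna: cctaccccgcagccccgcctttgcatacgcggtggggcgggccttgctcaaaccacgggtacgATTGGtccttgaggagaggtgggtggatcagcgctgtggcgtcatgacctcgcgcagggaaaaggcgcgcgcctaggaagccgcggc
Mki67 held 2 CHR matches and 1 E2F match within 116 bases of its start, and Top2a held a CHR on the opposite strand 23 bases before it. Mcm6 held E2F letters on both strands at 2 places, Rrm1 held 1 E2F match, and Pcna held CCAAT and neither of the other elements.

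The values are FPKM (fragments per kilobase of transcript, relative to all mapped fragments), divided by a scaling factor for each library between 0.933 and 1.06. Depth, estimated from the smallest steps in the FPKM values, ran from 12.9 to 22.3 M fragments, and the fewest fragments estimated for a member in any library was 19 (Plk1). The labelled tissues differed in their defining genes. The summed FPKM of 9 NP markers, including T and Krt19, ran from 25917 to 33037 in the 10 NP libraries and from 2513 to 15171 in the 10 AF libraries. The 15171 belonged to AF vehicle library 9, and the next highest AF sum was 7596 (MDL-800 library 25). For 7 AF markers, including Scx and Tnmd, the sums were 784 to 1561 in NP and 2527 to 7409 in AF. Of these 7, 6 were called lower in NP with vehicle and 5 with MDL-800. In each treatment 1 had a positive difference (log2 0.48 and 0.59), which was not called. Nothing in the labels says which libraries came from the same animal, so the tests below measure the spread between these libraries, and in bulk tissue fewer cells of a type and less RNA per cell cannot be told apart.

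All 40 proliferation genes were lower in NP than in AF, in vehicle-treated and in MDL-800-treated mice alike. Among vehicle libraries, the group means of the members ran from 0.799 (Cenpe) to 52.0 (Pcna) in NP, with a median of 3.75, and from 5.07 to 130 in AF, with a median of 25.2. The NP level was between 8.62% (Mki67) and 63.2% (Rrm1) of the AF level, with a median of 15.4%. With MDL-800 the NP level was between 7.26% (Tk1) and 48.7% (Rrm1) of the AF level, with a median of 11.2%. In a limma fit on log2(FPKM + 1) over 16383 genes, 40 of 40 members were called lower in NP among vehicle libraries (Benjamini-Hochberg adjusted p from 1.04e-05 for Prc1 to 0.0207 for E2f1), where 33.9% of all genes were called lower and 55.7% in either direction. Among MDL-800 libraries, 40 of 40 were again called lower (limma adjusted p from 3.05e-06 for Mcm6 to 0.00583 for E2f1), against 37.2% of all genes, with 62.8% called in either direction. These 2 comparisons share no library. The median log2 difference of the members, NP minus AF, was −2.31 with vehicle and −2.64 with MDL-800, while the median of all genes was −0.08 in both. No NP library reached the lowest AF library for 38 members among vehicle libraries (25.9% of all genes lay apart in this direction), the exceptions being E2f1 and Rrm1, and for 40 among MDL-800 libraries (30.5% of all genes). All 40 members passed the filter on low values, and 38 would have passed on the NP libraries alone, Cdc6 and Cenpe being the exceptions.

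**Figure D1:**
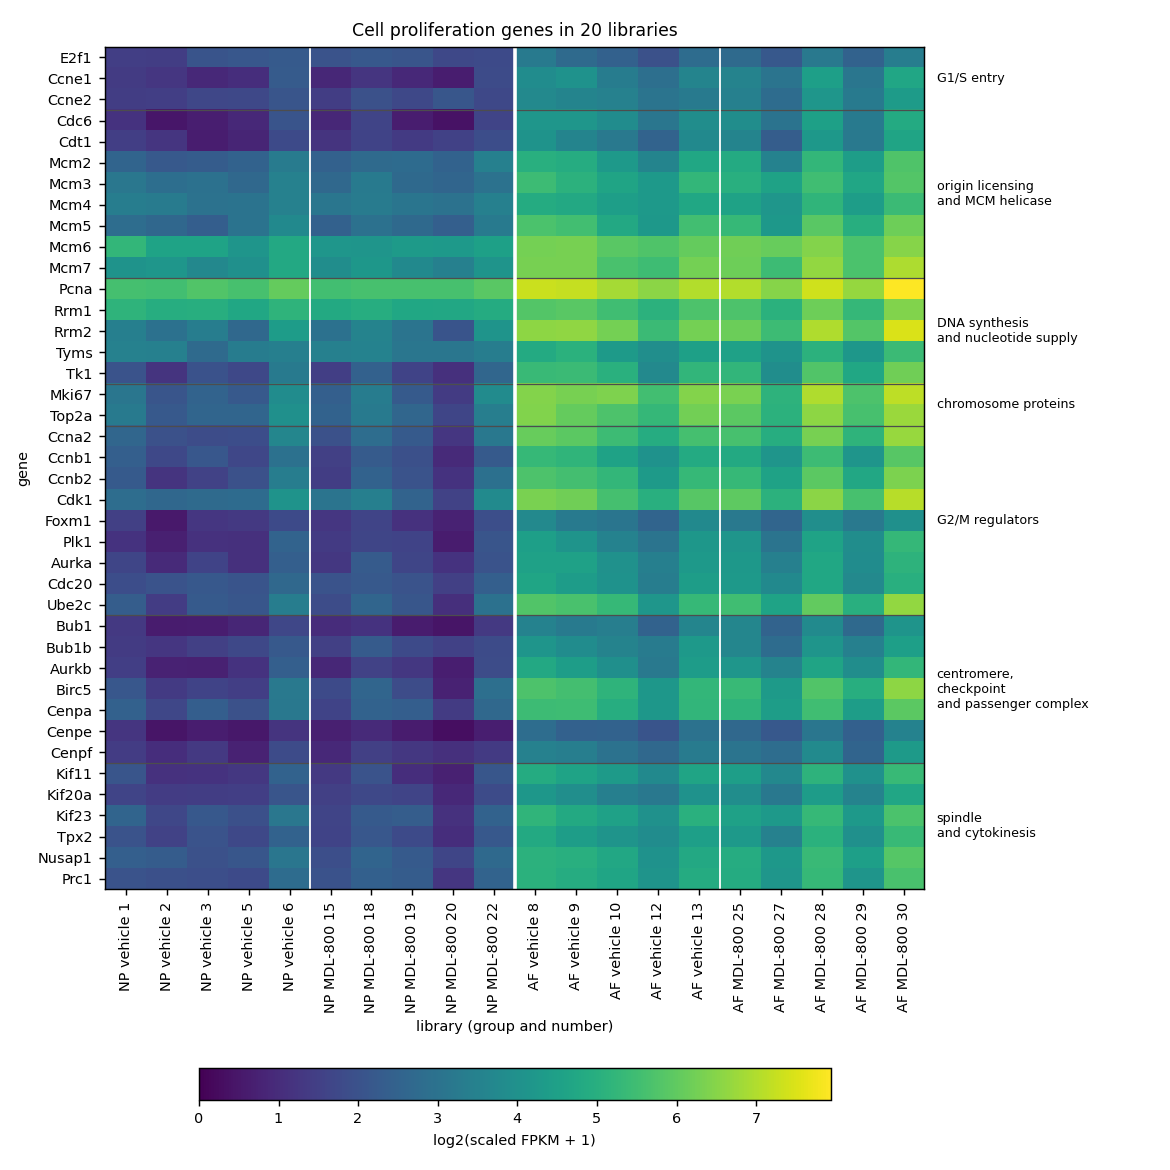
Level of each of the 40 genes (rows, grouped by role) in each of the 20 libraries (columns, by group and library number), coloured by log2(scaled FPKM + 1). The 10 NP columns are darker than the 10 AF columns for all rows, with overlap between single libraries for E2f1 and Rrm1, and AF vehicle library 12 and AF MDL-800 library 30 are the lowest and the highest of their groups for all 40 genes.

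Values by library are given below in the order of libraries 1, 2, 3, 5 and 6 (vehicle) and 15, 18, 19, 20 and 22 (MDL-800) for NP, and of 8, 9, 10, 12 and 13 (vehicle) and 25, 27, 28, 29 and 30 (MDL-800) for AF. All are scaled FPKM, and every log2 difference was taken after adding 1 to the FPKM, which makes differences of low genes come out too small.

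The chromosome proteins showed the widest gap between tissues. Mki67 (ENSMUSG00000031004, chr7:135689784-135716361, minus strand) encodes Ki-67, the coat protein of mitotic chromosomes that serves as the standard marker of cycling cells. Its level was 7.61, 3.29, 4.78, 3.65 and 13.4 with vehicle and 4.32, 9.14, 3.70, 1.60 and 13.2 with MDL-800 in NP. In AF it was 86.8, 79.0, 83.0, 44.9 and 86.5 with vehicle and 80.3, 33.8, 127, 52.2 and 141 with MDL-800. The highest NP library therefore stood under the lowest AF library, and AF vehicle library 12 lay far below the other 4 of its group. Mean Mki67 was 6.55 ± 4.21 in NP and 76.0 ± 17.7 in AF (SD, n = 5 each) with vehicle, an 11.6-fold difference, and the log2 difference was −3.47 ± 0.33 (SE, limma adjusted p = 1.59e-05). With MDL-800 the means were 6.40 ± 4.72 and 86.9 ± 46.5, and the log2 difference was −3.63 ± 0.50 (limma adjusted p = 0.000108).

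Top2a (chr11:98992943-99024189, minus strand) encodes the topoisomerase that untangles sister chromatids. It stood at 8.65, 3.65, 5.02, 4.97 and 14.9 with vehicle and at 4.69, 8.39, 5.20, 2.14 and 9.48 with MDL-800 in NP. The AF values were 86.0, 65.3, 52.2, 37.8 and 75.2 with vehicle and 60.9, 33.3, 95.5, 48.8 and 106 with MDL-800. The tissues did not overlap, and the same libraries were at the extremes as for Mki67 in both AF groups. The log2 difference was −3.02 ± 0.33 with vehicle (limma adjusted p = 3.72e-05) and −3.32 ± 0.38 with MDL-800 (3e-05).

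**Figure D2:**
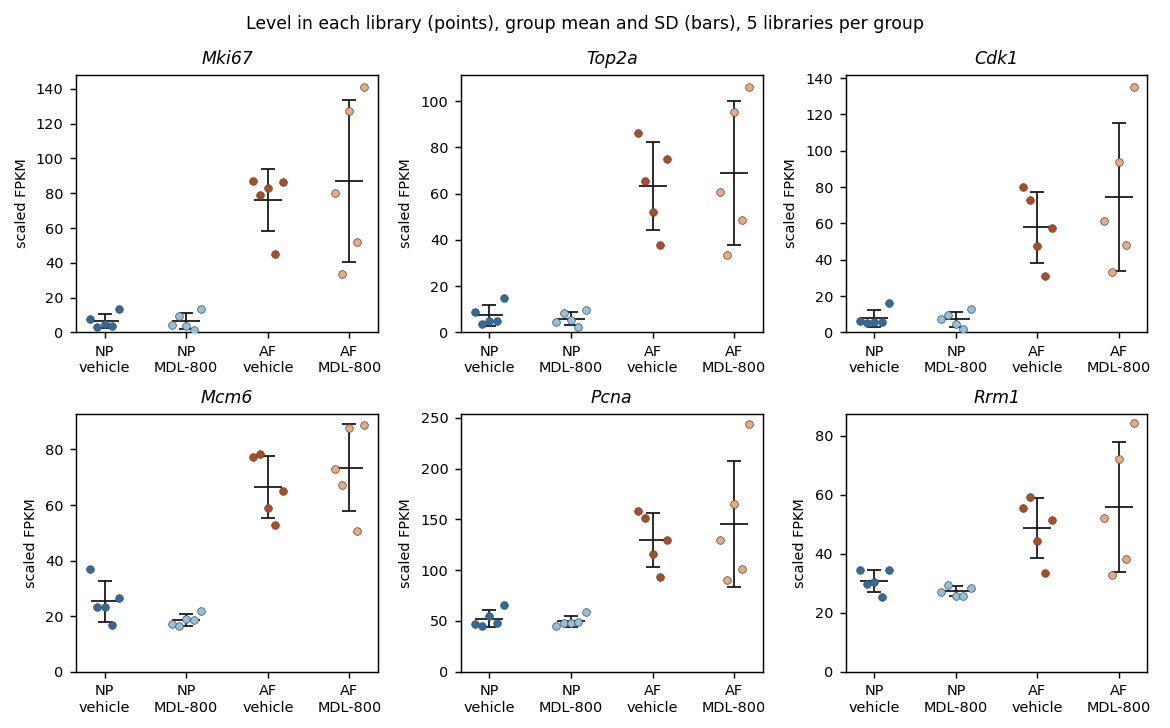
Scaled FPKM of Mki67, Top2a, Cdk1, Mcm6, Pcna and Rrm1 in each library (points) with the group mean and SD (bars, n = 5), for the 4 groups on the x axis. The NP and AF points are apart for Mki67, Top2a, Cdk1, Mcm6 and Pcna and overlap for Rrm1, whose NP values (25.4 to 34.5) reach past the lowest AF values (32.7 and 33.5).

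The G2/M regulators, which bring cells into and through mitosis, were lower in NP by log2 differences from −2.0 (Foxm1) to −3.21 (Ccna2), with a median of −2.64, in vehicle libraries. All 9 were called lower in each treatment. Cdk1, the kinase that starts mitosis, had the highest level of the group, 6.22, 5.25, 5.71, 5.82 and 15.9 with vehicle and 7.28, 9.65, 4.82, 1.98 and 12.8 with MDL-800 in NP. In AF, Cdk1 stood at 80.3, 72.7, 47.7, 31.1 and 57.2 with vehicle and at 61.2, 33.3, 93.8, 48.0 and 135 with MDL-800. NP vehicle library 6 carried more than the other 4 of its group by a wide margin and still lay below every AF library. The log2 difference for Cdk1 was −2.79 ± 0.32 with vehicle (limma adjusted p = 4.5e-05) and −3.19 ± 0.45 with MDL-800 (0.000128).

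Ccna2 encodes cyclin A2, the partner of CDK2 in S phase and of CDK1 in G2. Its NP values were 5.16, 2.89, 2.56, 2.702 and 11.5 with vehicle and 2.93, 6.13, 3.76, 1.38 and 8.11 with MDL-800. Its AF values were 67.2, 60.3, 42.8, 28.9 and 47.8 with vehicle and 48.8, 30.0, 78.1, 34.5 and 104 with MDL-800. NP held 10.0% of the AF level with vehicle and 7.55% with MDL-800, and the log2 differences were −3.21 ± 0.35 (limma adjusted p = 3.87e-05) and −3.45 ± 0.42 (4.32e-05). The other members of this role are the cyclins Ccnb1 and Ccnb2, the mitotic kinases Plk1 and Aurka, the transcription factor Foxm1, and Cdc20 and Ube2c, which drive the destruction of mitotic proteins. Plk1 ranged from 0.529 to 4.75 in NP and from 7.27 to 37.6 in AF. Some members overlap an expressed gene on the opposite strand. Libraries were stranded, but whether the counting used the strand is not given in the sources used here, so the levels of all such members are uncertain. In this role they are Ube2c, across from the skeletal muscle gene Tnnc2 (mean of 5.29 in NP and 78.9 in AF), Cdc20, across from Elovl1 (26.9 and 42.1), and Ccna2, across from Exosc9 (11.4 and 14.2). In other roles they are Mcm7 (Cops6, 53.9 and 55.3, and Ap4m1, 8.34 and 10.4), Ccne2 (Ints8, 14.8 and 16.7), Kif20a (Cdc23, 19.0 and 26.4), Tk1 (Afmid, 3.38 and 6.63), Nusap1 (Oip5, 2.17 and 5.88) and Prc1 (Rccd1, 2.74 and 4.07).

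Among the 7 genes of the centromere, the spindle checkpoint and the chromosomal passenger complex, the log2 differences ran from −1.76 (Cenpe) to −3.23 (Birc5) with vehicle. Birc5 encodes survivin, a subunit of the passenger complex together with the kinase Aurkb. It stood in NP at 3.45, 1.55, 1.99, 1.75 and 8.28 with vehicle and 2.41, 5.07, 2.62, 0.709 and 6.42 with MDL-800, and in AF at 52.0, 46.2, 34.8, 17.4 and 36.8 with vehicle and 39.7, 19.2, 53.7, 30.2 and 94.5 with MDL-800. The 11.0-fold difference with vehicle (log2 −3.23 ± 0.38, limma adjusted p = 5.81e-05) was second only to Mki67 by log2 size among the 40 members, and with MDL-800 the difference was 13.8-fold (log2 −3.42 ± 0.46, 9.18e-05).

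Bub1b encodes BubR1, which holds back anaphase until chromosomes are attached. Its values were 1.61, 1.40, 1.84, 2.27 and 3.67 with vehicle and 1.85, 3.86, 2.45, 1.88 and 2.48 with MDL-800 in NP. In AF they were 16.8, 13.5, 10.7, 8.86 and 18.7 with vehicle and 11.6, 5.95, 16.6, 9.90 and 21.4 with MDL-800. It was the member of this role with the smallest p in vehicle libraries, with a log2 difference of −2.21 ± 0.23 (limma adjusted p = 2.88e-05), and it differed by −1.92 ± 0.29 with MDL-800 (0.000186). Cenpe, a kinesin that moves chromosomes to the spindle equator, had the lowest level of all members in NP, with 1.35, 0.371, 0.567, 0.414 and 1.29 for vehicle and 0.637, 0.915, 0.515, 0.233 and 0.577 for MDL-800. It stood at 6.10, 4.52, 4.61, 3.14 and 6.99 with vehicle and 5.37, 3.56, 7.71, 4.37 and 10.5 with MDL-800 in AF, so its tissues were apart despite the low level. Bub1, a checkpoint kinase, Cenpa, the histone variant that marks the centromere, and Cenpf, a kinetochore protein, were called lower in both comparisons. Short stretches of some members are nearly identical to parts of other genes, and reads there could have been assigned to either. For Birc5 these include 169 bases that are 95.3% identical to Klhl41 (4.07 in NP and 63.8 in AF) and 163 bases that are 95.1% identical to Trim27 (15.3 and 26.8). For Cenpf (1.43 and 9.15) they include parts of Churc1 (45.9 and 36.2), Cxcr2 (3.19 and 31.8) and Slfn5 (0.740 and 12.7), among others, so that some of these genes were higher in AF and some in NP.

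The 6 genes of the spindle and of cytokinesis lay within a narrow band, from −2.14 (Kif20a) to −2.82 (Kif11) with vehicle and from −2.43 (Kif20a) to −3.07 (Kif11) with MDL-800. Nusap1, which bundles spindle microtubules, had the highest level, 4.24, 3.95, 2.93, 3.37 and 7.64 with vehicle and 2.77, 4.92, 3.70, 2.17 and 5.54 with MDL-800 in NP. Its AF values were 33.6, 31.2, 26.0, 15.7 and 26.6 with vehicle and 28.9, 18.0, 40.8, 21.1 and 56.9 with MDL-800. Prc1, which crosslinks the central spindle, had the smallest p of all members in vehicle libraries. It stood in NP at 3.06, 2.85, 2.77, 2.45 and 5.96 with vehicle and 2.98, 4.38, 3.98, 1.38 and 4.71 with MDL-800, and in AF at 32.9, 29.4, 24.5, 16.1 and 28.6 with vehicle and 28.4, 16.8, 39.2, 16.6 and 49.8 with MDL-800. Both genes were apart between tissues, with log2 differences of −2.36 ± 0.24 for Nusap1 (limma adjusted p = 2.6e-05) and −2.64 ± 0.23 for Prc1 (1.04e-05) in vehicle libraries. Kif11 (the motor that separates spindle poles), Kif23 and Kif20a (motors of the central spindle) and Tpx2 (the activator of Aurora A) were called lower with them.

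**Figure D3:**
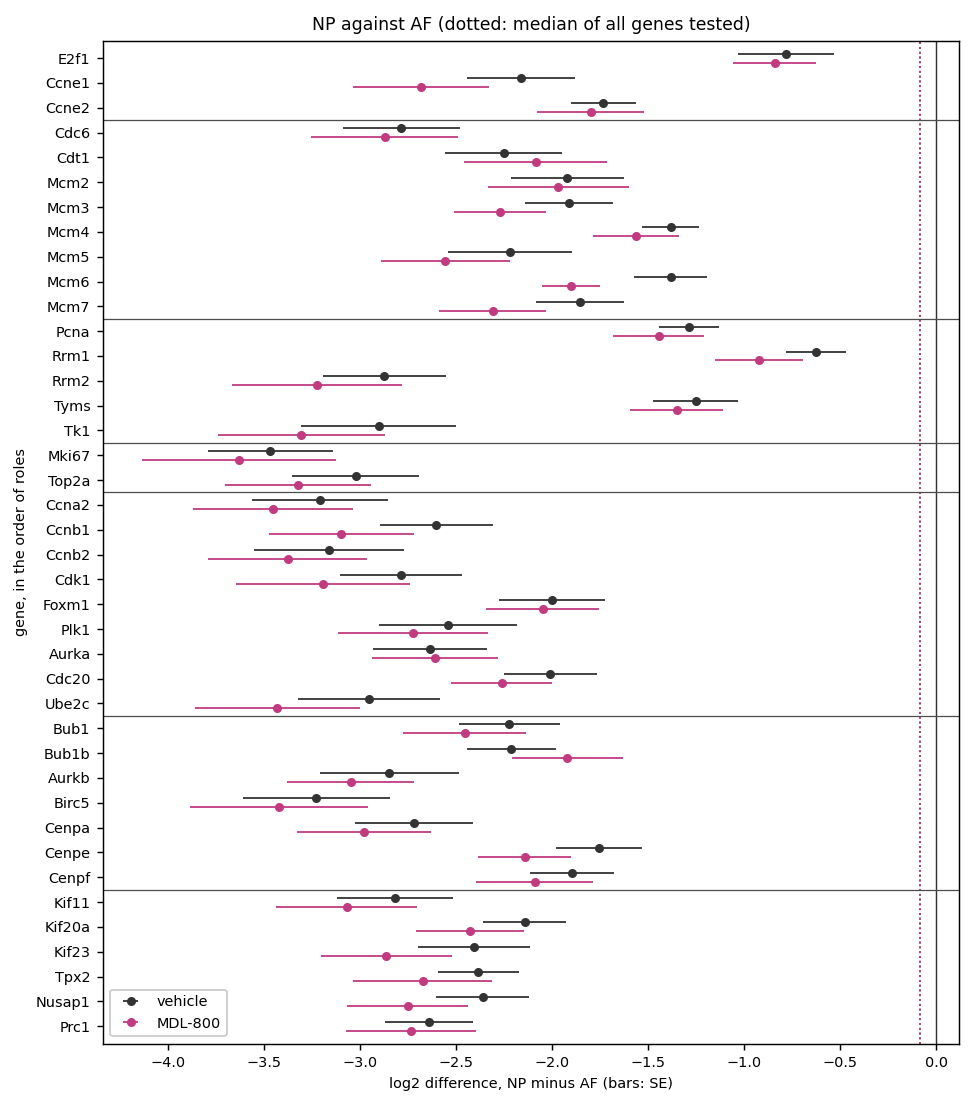
Log2 difference in level, NP minus AF, for each of the 40 genes (y axis, in the order of roles, separated by lines), with bars of 1 SE, for vehicle libraries (dark) and MDL-800 libraries (pink); dotted lines at −0.08 mark the median of all genes tested. All points lie to the left of 0, from −3.63 for Mki67 to −0.63 for Rrm1.

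Replication genes were lower in NP by less than the mitotic genes in most cases, though the roles overlapped and the difference between roles was not tested. In the role of DNA synthesis and nucleotide supply the median log2 difference was −1.29 with vehicle, with a range from −0.63 (Rrm1) to −2.90 (Tk1). Pcna, the sliding clamp of DNA polymerases, which also serves in DNA repair, had the highest level of all 40 members in every group. It stood at 46.9, 45.1, 54.5, 48.3 and 65.5 with vehicle and 44.9, 48.4, 48.0, 48.5 and 58.5 with MDL-800 in NP, and at 158, 151, 116, 92.9 and 130.2 with vehicle and 129.5, 89.9, 165, 101 and 244 with MDL-800 in AF. The tissues were apart, and NP retained 40.2% of the AF level with vehicle and 34.0% with MDL-800 (log2 −1.29 ± 0.16, limma adjusted p = 7.32e-05, and −1.45 ± 0.24, 0.000329).

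The subunits of ribonucleotide reductase, which makes deoxynucleotides, differed from each other. Rrm1, the large subunit, stood in NP at 34.5, 29.6, 30.4, 25.4 and 34.4 with vehicle and 27.0, 29.6, 25.6, 25.8 and 28.2 with MDL-800, and in AF at 55.5, 59.3, 44.5, 33.5 and 51.5 with vehicle and 52.0, 32.7, 72.2, 38.3 and 84.5 with MDL-800. Rrm2, the small subunit that is degraded outside S phase as a protein, stood in NP at 9.73, 6.75, 9.34, 5.40 and 20.0 with vehicle and 6.80, 10.8, 7.30, 3.22 and 16.2 with MDL-800, and in AF at 94.5, 98.1, 76.8, 41.8 and 76.4 with vehicle and 70.2, 42.2, 126, 54.9 and 178 with MDL-800. In AF vehicle the Rrm2 level was above that of Rrm1 in all 5 libraries, and in NP vehicle it was below it in all 5. With vehicle, Rrm1 in NP was 63.2% of its AF level (log2 −0.63 ± 0.16, limma adjusted p = 0.00541), whereas Rrm2 was 13.2% (log2 −2.87 ± 0.32, 4.14e-05). Tyms and Tk1, the enzymes that make and salvage thymidylate, were called lower as well, by log2 differences of −1.25 ± 0.22 and −2.90 ± 0.40 with vehicle. Tyms (8.95 in NP and 24.6 in AF) also holds stretches nearly identical to parts of other genes, so its level is uncertain. They include 357 bases that are 95.5% identical to Map3k2 (10.7 and 8.33) and 358 that are 96.4% identical to Wdr59 (4.88 and 5.26).

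Origin licensing and helicase genes had median log2 differences of −1.92 with vehicle and −2.18 with MDL-800. Cdc6 and Cdt1 load the MCM2-7 helicase on origins, and the 6 helicase subunits are needed in equal amounts in the complex. Mcm6, with the highest mean level of the role except in AF with MDL-800, where Mcm7 was higher, stood at 37.0, 23.3, 23.3, 16.7 and 26.6 with vehicle and 17.2, 16.4, 18.9, 18.4 and 22.0 with MDL-800 in NP. In AF it stood at 77.2, 78.5, 58.9, 52.7 and 65.2 with vehicle and 73.0, 67.2, 87.7, 50.8 and 88.7 with MDL-800. The tissues were apart (log2 −1.38 ± 0.19, limma adjusted p = 0.000145, and −1.90 ± 0.15, 3.05e-06). Mcm4, with the smallest p of the role in vehicle libraries, stood in NP at 9.26, 8.95, 7.03, 7.20 and 10.3 with vehicle and 7.62, 8.83, 7.52, 6.91 and 10.1 with MDL-800, and in AF at 28.6, 26.8, 20.9, 18.1 and 25.8 with vehicle and 23, 16.9, 35.7, 20.6 and 41.2 with MDL-800. Its NP libraries were close together, between 6.91 and 10.3, and NP held 35.6% of the AF level with vehicle. The loading factor Cdc6 showed the widest gap of the role, at 9.14% of the AF level with vehicle. Cdt1 shares its strand with Gm20388 (65.0 in NP and 36.4 in AF), so its level is uncertain as well.

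The 3 genes of G1/S entry were low in both tissues. Ccne1 and Ccne2 encode the E-type cyclins that activate CDK2, and E2f1 encodes the founding E2F activator. Ccne1 stood in NP at 1.59, 1.39, 0.900, 1.04 and 3.82 with vehicle and 0.846, 1.36, 0.878, 0.561 and 2.48 with MDL-800, and in AF at 13.6, 15.4, 8.99, 6.40 and 10.9 with vehicle and 10.6, 7.22, 21.5, 7.70 and 24.8 with MDL-800. Ccne2 stood in NP at 1.70, 1.79, 2.21, 2.33 and 3.31 with vehicle and 1.74, 2.88, 2.31, 3.37 and 2.30 with MDL-800, and in AF at 12.3, 11.0, 10.2, 7.34 and 8.46 with vehicle and 9.88, 5.94, 16.9, 8.47 and 19.3 with MDL-800. Both cyclins were apart between tissues, by log2 differences of −2.16 ± 0.28 (limma adjusted p = 0.000105) and −1.73 ± 0.17 (2.02e-05) with vehicle. E2f1 ranged from 1.73 to 3.71 in NP and from 2.95 to 9.21 in AF, so its tissues overlapped. Its log2 difference of −0.78 ± 0.25 with vehicle had a limma adjusted p of 0.0207, which rose to 0.0517 without NP vehicle library 1, to 0.0538 without library 2, and to 0.314 (log2 −0.29) after quantile normalization. With MDL-800 it rose from 0.00583 to 0.176 (log2 −0.36) after quantile normalization. A replicate block by the numbers in the column names gave limma adjusted p = 0.0546 with vehicle and 0.0649 with MDL-800. Under quantile normalization the median of all genes moved from −0.08 to 0.20 with vehicle, and 39 members were still called lower in each treatment.

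Genes of the same pathways outside the 40 moved in the same direction where they belong to replication and mitosis. Of 32 other replication genes, 29 were called lower in NP and 1 higher with vehicle, where 33.9% of all genes were called lower and 21.8% higher, and the median log2 difference was −1.22. Gins1, a subunit of the active helicase, stood at a mean of 1.06 in NP and 6.64 in AF, and Clspn, a replication checkpoint mediator, at 0.739 and 5.66. The exception was Orc6, a subunit of the origin recognition complex, at 32.3 in NP and 20.3 in AF (log2 0.65 ± 0.16, limma adjusted p = 0.00464 with vehicle and 0.0494 with MDL-800). Of 52 other mitosis genes, 50 were called lower and 1 higher, with a median of −1.94. Cenpp and Kif18a had the smallest p, and Pttg1, which encodes securin, was the one called higher, at 97.3 in NP and 72.8 in AF (log2 0.42 ± 0.15, limma adjusted p = 0.0363).

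Of a list of 25 G1 cyclins, kinases, pocket proteins and inhibitors, 12 were called lower and 6 higher in NP with vehicle, and the median was −0.49. Over all genes 33.9% were called lower and 21.8% higher. With MDL-800, 12 were called lower and 4 higher, against 37.2% and 25.6% of all genes. Cdk2, the S phase kinase, stood at 5.89 in NP and 19.8 in AF (log2 −1.58 ± 0.16, limma adjusted p = 2.54e-05). The CDK inhibitors went both ways. Cdkn2c was lower, at 12.3 against 24.1. Cdkn2b was higher in NP, at 5.89 against 2.08 with vehicle (log2 1.18, limma adjusted p = 0.000165) and 6.77 against 1.63 with MDL-800 (log2 1.57, 2.62e-06). Cdkn1c was higher with vehicle, at 93.0 against 38.5 (log2 1.22, limma adjusted p = 0.000526), and its values with MDL-800 were 103 and 57.9 (log2 0.88, limma adjusted p = 0.0878).

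Markers of blood cells moved with the same contrast. The summed FPKM of 11 red cell lineage genes (globins, Alas2 and the like) ran from 31.3 to 229 in NP and from 647 to 3443 in AF, and all 11 were called lower in NP in both treatments. The sum in NP was 7.47% of that in AF with vehicle and 6.13% with MDL-800. For 12 granulocyte lineage genes, from the early Elane and Mpo to the late S100a8 and Mmp8, the sum ran from 213 to 3383 in NP and from 6609 to 35678 in AF, all 12 were called lower, and NP held 8.98% and 5.89% of the AF level. The corresponding shares were 7.63% and 6.89% for 11 B lineage genes, 7.58% and 11.1% for 7 T lineage genes, 6.33% and 4.71% for 6 blood stem and progenitor genes, 7.37% and 6.16% for 6 endothelial genes, and 7.89% and 3.28% for 7 skeletal muscle genes. Macrophage and osteoclast genes stood at 16.1% and 15.2%, growth plate genes at 29.6% and 29.0%, and bone genes at 131% and 88.2%. The bone sum differs from its single genes, of which 7 of 8 were called lower in NP in each treatment and 0 higher, and whose mean log2 level was 1.78 to 3.79 in the NP libraries and 4.67 to 6.88 in the AF libraries. No gene of these lists was at 0 in every library of a group. The part of these cells in the lower level of the proliferation genes was not tested. With the mean log2 level of the red cell list as a covariate, a fit added after the data were seen, 0 members were called with vehicle (0 at unadjusted p under 0.05, limma) and 1 with MDL-800, and the median log2 difference was −0.15 and −0.54. In that fit 0 of all 16383 genes were called with vehicle, where 9127 had been called without it. With MDL-800 it called 938 of all genes higher in NP and 2216 lower. With the granulocyte list as a covariate, 22 members were called with vehicle and 1 with MDL-800, with medians of −1.22 and −0.71. Of all 16383 genes, 404 were called higher and 1747 lower with vehicle, and 758 higher and 1643 lower with MDL-800. Both lists were themselves apart between the tissues, so that tissue and covariate overlap in these fits.

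Within each tissue, library by library, Mki67 was compared with 12 marker lists. Vehicle and MDL-800 libraries were pooled unless stated otherwise. Over the 10 NP libraries, log2 Mki67 and the mean log2 level of the red cell list had a Pearson's r of 0.98 (permutation test with 100000 resamples, two-sided, p = 1e-05, the smallest they can give; adjusted over 24 relations, 0.00024) and a Spearman's rho of 0.95 (permutation p = 0.00015). Without the 2 libraries farthest from the median r was 0.956. Over the 10 AF libraries r was 0.932 (permutation p = 0.00016, adjusted 0.00128) and rho 0.794 (permutation p = 0.00854), with r = 0.896 without the 2 farthest libraries. For the granulocyte list r was 0.909 in NP (permutation p = 0.00044, adjusted 0.00211) and 0.765 in AF (permutation p = 0.0105, adjusted 0.0315), falling to 0.603 in AF without the 2 farthest libraries. The rho was 0.891 in NP (permutation p = 0.0013) and 0.818 in AF (permutation p = 0.00662). Skeletal muscle markers went the other way in AF (r = −0.777, permutation p = 0.00792, adjusted 0.0272, rho = −0.758, permutation p = 0.0155; r = −0.682 without the 2 farthest). In NP the blood stem and progenitor list (r = 0.936, permutation p = 3e-05, adjusted 0.00036, rho = 0.951, permutation p = 0.00011; r = 0.954 without the 2 farthest), the B lineage list (r = 0.867, permutation p = 0.00044, adjusted 0.00211) and the endothelial list (r = 0.905, permutation p = 0.00057, adjusted 0.00228) passed adjustment as well. Their rho values were 0.891 for the B lineage list (permutation p = 0.00105; r = 0.904 without the 2 farthest) and 0.903 for the endothelial list (permutation p = 0.00113; r = 0.90 without the 2 farthest). In AF the r of these 3 lists ran from 0.154 for endothelium to 0.596 for the B lineage (permutation p = 0.668 and 0.0684). Within the AF treatment groups, of 5 libraries each, r for the B lineage was 0.921 with vehicle and 0.884 with MDL-800. For endothelium it was 0.717 and −0.155, and for the stem and progenitor list 0.622 and 0.448. These values within groups were not tested. The macrophage and osteoclast list passed adjustment in NP (r = 0.711, permutation p = 0.0171, adjusted 0.0456, rho = 0.636, permutation p = 0.056), but r was 0.293 without the 2 farthest libraries, so the relation rests on those. The T lineage list did not pass. Its r was 0.446 in NP (permutation p = 0.198, adjusted 0.365) and −0.12 in AF (permutation p = 0.727, adjusted 0.758). Without the 2 farthest libraries r for this list was −0.387 in NP and 0.816 in AF. Within the AF treatment groups it was −0.918 with vehicle and 0.914 with MDL-800, and within the NP groups 0.551 and 0.394. The values within groups were not tested, and the vehicle value leaned on AF library 12. That library had a mean log2 T lineage level of 3.85, against 1.40 to 2.24 in the rest of its group, and the lowest Mki67. The NP marker list showed no relation that passed adjustment, with r = −0.299 in NP (permutation p = 0.396, rho = −0.345, permutation p = 0.331). Neither did AF markers (r = 0.466 in NP and −0.616 in AF), bone (0.348 and 0.377) or growth plate genes (0.391 and 0.172). Skeletal muscle markers did not pass in NP (r = 0.244, and 0.618 without the 2 farthest). Within the AF groups, untested, r for bone was 0.940 with vehicle and 0.296 with MDL-800. For AF markers it was −0.061 and −0.919.

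**Figure D4:**
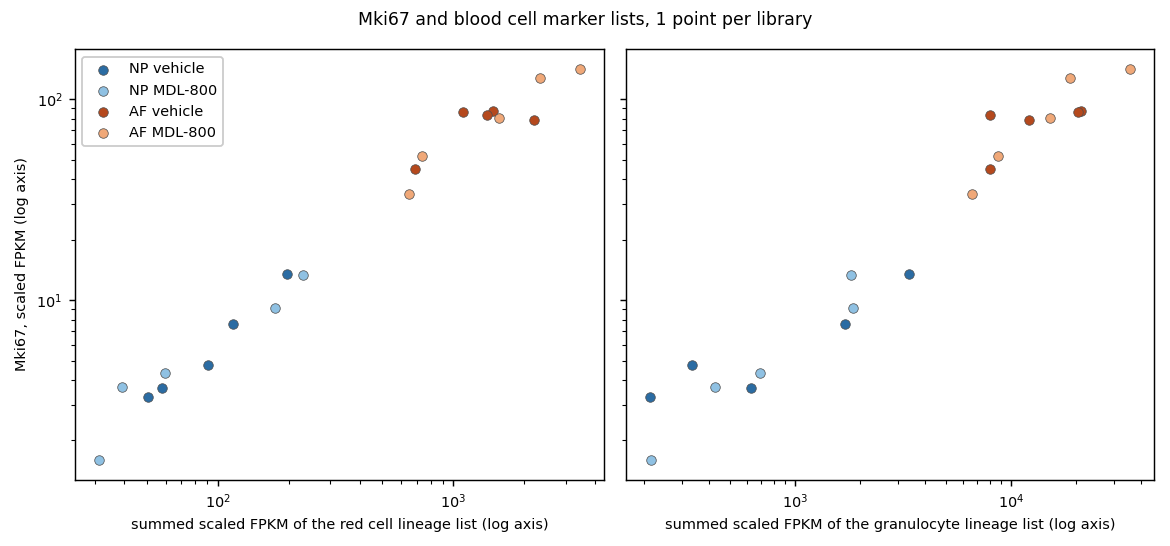
Mki67 level (y axis, scaled FPKM, log axis) against the summed scaled FPKM of the red cell lineage list (left) and the granulocyte lineage list (right; both log axes), with 1 point per library coloured by group. NP libraries (Mki67 from 1.60 to 13.4) and AF libraries (from 33.8 to 141) form separate groups, and within each the libraries with more red cell marker RNA tend to have more Mki67.

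The members were high and low in the same libraries. In NP vehicle, library 6 was the highest of its group for 36 of 40 members, and library 1 for the other 4, Mcm6, Rrm1, Tyms and Cenpe. Library 6 also had the highest red cell sum, 197 against 50.7 to 116, and the highest granulocyte sum, 3383 against 213 to 1705. In NP MDL-800, library 22 was highest for 28 members and library 18 for 11, while library 20 was lowest for 32 and yet highest for Ccne2. Libraries 22 and 18 had red cell sums of 229 and 175, and library 20 had 31.3, the lowest of the 20 libraries. In AF vehicle, library 12 was lowest for all 40 members. It had a red cell sum of 684 against 1102 to 2204, a skeletal muscle sum of 7770 against 871 to 4050, and a T lineage sum of 129 against 12.6 to 28.8. In AF MDL-800, library 30 was highest for all 40, with a red cell sum of 3443 against 647 to 2326, and library 27, with the sum of 647, was lowest for 34. The spread within a group was wide, with a median ratio of highest to lowest library of 3.55 (vehicle) and 3.43 (MDL-800) in NP and of 2.33 (vehicle) and 3.42 (MDL-800) in AF. The steadiest member was Rrm1 in NP, with a coefficient of variation of 12.2% with vehicle and 6.12% with MDL-800, and Mcm6 in AF, with 16.9% and 21.4%.

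MDL-800 against vehicle addressed whether long-term dosing changed these genes in old disc. In NP, 0 of 40 members were called (limma, adjusted p under 0.05), where 0.25% of all genes were called, and 1 member had an unadjusted p under 0.05, against 14.1% of all genes. The log2 differences, MDL-800 minus vehicle, ran from −0.40 (Ccnb1) to 0.32 (Cdt1), with 29 below 0, 11 above, and a median of −0.12 beside −0.03 for all genes. Mcm6, the member with the smallest p, had a mean of 18.6 ± 2.15 with MDL-800 and 25.4 ± 7.42 with vehicle (SD, n = 5 each; log2 −0.39 ± 0.17, limma adjusted p = 0.345), and the groups overlapped, since vehicle library 5 stood at 16.7. Rrm1, the next, had means of 27.2 ± 1.67 and 30.9 ± 3.77 (log2 −0.17 ± 0.09, limma adjusted p = 0.44). For Mki67 the difference was −0.12 ± 0.47 (limma adjusted p = 0.943). Intervals of 2 SE on either side reached from −1.07 to 0.83 for Mki67, so changes of up to about this size in either direction were not resolved. The direction of the median rested on single libraries, since leaving out vehicle library 6 gave 0.05 and leaving out MDL-800 library 20 gave 0.02, these being the libraries that were highest and lowest for most members.

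In AF, 0 of 40 members were called with MDL-800 (limma), where 0 of all 16383 genes were called, and 0 members had an unadjusted p under 0.05, against 1.65% of all genes. Differences were positive for 39 members and negative for Bub1b, from −0.13 to 0.32 (Plk1), with a median of 0.14 beside 0.01 for all genes. Cenpe (log2 0.22 ± 0.27) and Plk1 (log2 0.32 ± 0.40) had the smallest p, with a limma adjusted p of 1 for both. Plk1 stood in NP at 1.24, 0.629, 1.21, 1.13 and 4.75 with vehicle and 1.54, 2.19, 2.01, 0.529 and 3.23 with MDL-800, and in AF at 21.2, 16.2, 10.4, 7.30 and 17.5 with vehicle and 16.4, 7.27, 23.3, 13.8 and 37.6 with MDL-800. Its AF means were 19.7 ± 11.6 with MDL-800 and 14.5 ± 5.61 with vehicle (SD, n = 5 each), and its MDL-800 values ran from 7.27 to 37.6 around those of vehicle, 7.30 to 21.2. The shared sign rested on single libraries. Leaving out MDL-800 library 30 gave a median of −0.07 with 10 members positive, and leaving out vehicle library 12 gave −0.03 with 15 positive. Leaving out MDL-800 library 28 gave 0.02 and leaving out library 27 gave 0.33. Red cell genes moved in the same direction in AF, with a median of 0.23 and 10 of 11 positive, none of them called. So did bone (0.74, 7 of 8 positive), growth plate (0.67, 6 of 6), blood stem and progenitor (0.28, 5 of 6), granulocyte (0.17, 12 of 12) and endothelial genes (0.12, 6 of 6). The NP marker median was 0.05. Medians were negative for T lineage (−0.45), skeletal muscle (−0.28), macrophage and osteoclast (−0.22), AF marker (−0.19) and B lineage genes (−0.08). The part of any list in the result was not tested.

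**Figure D5:**
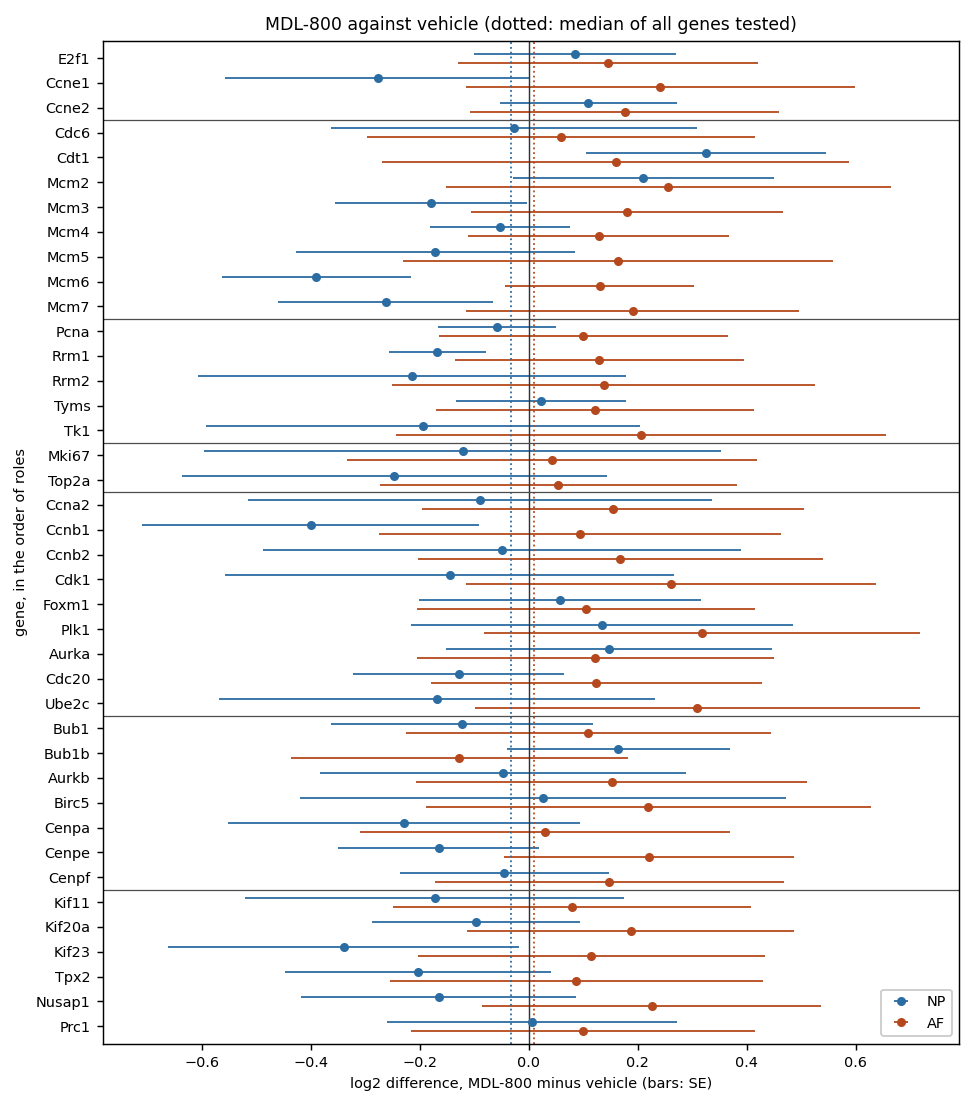
Log2 difference in level, MDL-800 minus vehicle, for each of the 40 genes (y axis, in the order of roles, separated by lines), with bars of 1 SE, in NP (blue) and AF (orange); dotted lines mark the medians of all genes tested, −0.03 and 0.01. AF points lie right of 0 for 39 genes and NP points left of 0 for 29, and no difference passed the adjusted threshold in either tissue.

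The difference of the treatment effect between the tissues, tested as a contrast over all 4 groups, was called for 0 of 40 members (limma; 0 of all genes were called, and 0 members against 3.73% of all genes had an unadjusted p under 0.05). The differences, NP effect minus AF effect, ran from −0.52 (Mcm6) to 0.29 (Bub1b) with a median of −0.25. Mcm6 had the smallest p (−0.52 ± 0.25, limma adjusted p = 0.9997), followed by Mcm7 (−0.45 ± 0.38). Mcm7 stood in NP at 16.0, 16.9, 12.1, 14.8 and 26.4 with vehicle and 13.7, 17.2, 12.7, 9.97 and 16.3 with MDL-800, and in AF at 78.1, 78.7, 49.6, 43.0 and 76.0 with vehicle and 71.9, 42.8, 100.5, 50.3 and 125 with MDL-800. Its treatment groups overlapped in both tissues. Of the related lists, the 32 other replication genes and the 52 other mitosis genes held 0 called genes in the 2 treatment comparisons, with medians of −0.08 for each in NP and 0.13 for each in AF, and 3 genes of each list in NP and 0 in AF had an unadjusted p under 0.05, against 14.1% and 1.65% of all genes.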

How the data were processed

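RNA of NP and AF tissue was sequenced from stranded, ribosomal RNA-depleted libraries, made from 50 ng of RNA with 14 PCR cycles, per the labels' protocols. The authors deposited 1 table of FPKM values for 20 libraries and 51789 genes. The submitters' processing notes name STAR 2.7.11b and the build mm10, and the program and annotation used for counting are not given in the sources used here. The FPKM values were divided by median-ratio factors over 11308 genes whose level was 1 FPKM or higher throughout the 20 libraries. The 16383 genes reaching 1 FPKM in 5 or more libraries were tested on log2(FPKM + 1) with limma 3.58.1 (eBayes with trend, R 4.3.3), two-sided, with Benjamini-Hochberg adjustment over all genes tested, and called at an adjusted p under 0.05. Only the groups compared entered each fit, except for the contrast between tissues. Depth was estimated from single-read steps in 6641 single-exon genes of 400 to 1200 nucleotides, and between 80.1% and 84.9% of the values read fell within 0.15 reads of a step. No count test was run, since the values are FPKM. No 2 libraries held identical values.

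The members and gene lists were chosen with earlier results of these data known. Values in every library were given for Mki67, Top2a, the member of each role with the highest mean level and the one with the smallest p in NP against AF with vehicle, and the 2 members with the smallest p in each treatment comparison. Of the related lists, up to 2 genes in each direction were named. Cdc6, Tyms, Tk1 and Ube2c, among other members, were named to complete their roles. Coordinates came from GENCODE M21 (GRCm38), which held 99.6% of the gene identifiers, and promoters from RefSeq. Copies were sought with blastn 2.17.0. Correlations used scipy 1.17.1, and figures and tables Python 3.11.15. The fit was tested on simulated data. Of 200 genes among 16383 that were given a log2 change of 1, it found 135 in NP against AF with vehicle, 156 with MDL-800, 160 for treatment in NP, 118 for treatment in AF and 121 for the difference between tissues. At a change of 2 it found 184, 194, 189, 181 and 178. Among the unchanged genes it called 15, 19, 12, 8 and 9 at a change of 1. At a change of 2 it called 14, 13, 13, 16 and 21 of them. These genes had no difference between groups, unlike many genes in the real tissue comparisons. Changed genes were drawn at random, and noise was drawn independently for each gene and library, so the counts are not rates for the members. Alternatives were 2 other pseudocounts, 2 other filters, 3 other scalings, all groups in the fit, robust eBayes, a correction for GC content, leaving out each library, and, chosen after seeing the data, marker covariates and a block by the numbers in the column names.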

Additional observations from a re-analysis of the deposited data

Results flagged for a closer look

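Of 160 sets of 5 libraries (40 genes in 4 groups), 12 held a library that stood apart from the others, with a gap to its nearest neighbour above 0.71 of the group's range. Chance gives about 1 in 20 such sets if values are normally distributed, and sets that share a library are not independent. The gaps were taken on FPKM without logs, for which this rate was not checked. In NP vehicle, library 6 was high for Cdk1 (15.9 against 6.22 for the next library, gap 0.909 of the range), Plk1 (4.75 against 1.24, 0.851), Prc1 (5.96 against 3.06, 0.823), Ccne1 (3.82 against 1.59, 0.765), Mcm2 (8.96 against 4.87, 0.765), Tk1 (8.74 against 3.08, 0.761), Nusap1 (7.64 against 4.24, 0.722) and Birc5 (8.28 against 3.45, 0.717). Library 3 of that group was low for Tyms (5.63 against 9.10, gap 0.747). In NP MDL-800, library 22 was high for Mcm2 (9.86 against 5.78, gap 0.768) and Pcna (58.5 against 48.5, gap 0.738). In AF vehicle, library 12 was low for Mki67 (44.9 against 79.0, gap 0.814).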

How the results depend on the processing

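Over the 10 other ways of processing, 39 to 40 members were called lower in NP in each treatment, with medians from −2.71 to −2.0 with vehicle and from −3.07 to −2.27 with MDL-800. Leaving out 1 library at a time gave 39 to 40 calls with vehicle and 40 with MDL-800. Of all genes tested, the 10 other ways called from 3923 (quantile) to 6706 (no filter, of 32358 genes) lower with vehicle. With MDL-800 they called from 4290 to 7503 lower, in the same 2 settings. Leaving out 1 library called 5109 to 5552 of all genes lower with vehicle, of 16240 to 16348 tested. With MDL-800 it called 5700 to 6079 lower, of 16271 to 16339. Quantile normalization moved the calls over all genes with vehicle from 3577 higher and 5550 lower to 6474 higher and 3923 lower, and with MDL-800 from 4188 and 6102 to 6919 and 4290. Members called in the treatment comparisons numbered 0 in every setting run. Their median ran from −0.17 to −0.06 in NP and from 0.13 to 0.15 in AF over these 10. Leaving out libraries gave −0.22 to 0.05 in NP, −0.07 to 0.33 in AF and −0.45 to −0.04 for the difference between tissues, and Mki67 ranged from −0.42 to 0.19, from −0.18 to 0.33 and from −0.46 to 0.15.

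With red cell markers as a covariate, chosen after the data were seen, 0 members were called with vehicle and 1 with MDL-800. With granulocyte markers the counts were 22 and 1. Of all 16383 genes, the red cell fit called 0 with vehicle, and 938 higher and 2216 lower with MDL-800. The granulocyte fit called 404 higher and 1747 lower with vehicle, and 758 higher and 1643 lower with MDL-800. The red cell covariate turned the sign with vehicle of E2f1 (0.38), Ccne1 (0.16), Mcm2 (0.45), Mcm5 (0.0667), Rrm1 (0.49), Rrm2 (0.027), Tk1 (0.73), Ccnb2 (0.30), Plk1 (0.24), Ube2c (0.36), Aurkb (0.14), Birc5 (0.27) and Cenpa (0.013), and with MDL-800 of E2f1 (0.094), Mcm2 (0.13) and Rrm1 (0.29). The granulocyte covariate turned E2f1 (0.020) and Rrm1 (0.0904) with MDL-800. None of these turned differences was called. With the red cell covariate their limma adjusted p ran from 0.495 (Rrm1) to 0.993 (Cenpa) with vehicle and from 0.583 (Rrm1) to 0.893 (E2f1) with MDL-800. With the granulocyte covariate it was 0.979 for E2f1 and 0.910 for Rrm1. For Mki67 under treatment in AF the red cell and granulocyte covariates gave −0.11 and −0.15. The cause was not tested.

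The numbers in the sample labels are not shared between groups. Column names carry other numbers, of unstated meaning, some shared by NP and AF libraries, whose deviations correlated from −0.18 to 0.29 between same-numbered libraries. A replicate block by these numbers called 39 of 40 members in each tissue comparison, E2f1 being lost (limma adjusted p = 0.0546 and 0.0649), and 0 for the difference between tissues. Of all 16383 genes it called 3377 higher in NP and 5406 lower with vehicle, and 2990 and 4867 with MDL-800. Every vehicle number was shared by an NP and an AF library. With MDL-800 only 36, 37 and 39 were shared, so that blocked fit rests on fewer libraries. Limits: the tissue comparison rests on dissected bulk tissue, FPKM carry no count error, and with 5 libraries a group the SE of a treatment difference had a median of 0.26 in NP and 0.33 in AF, and on simulated data a log2 change of 1 was found for 160 of 200 genes in NP and 118 of 200 in AF, so changes of this size could be missed.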
